A study of Homo sapiens with 18 samples.

Results

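The APOBEC3 genes encode cytidine deaminases and sit side by side on the plus strand of human chromosome 22. All 7 family symbols (APOBEC3A, APOBEC3B, APOBEC3C, APOBEC3D, APOBEC3F, APOBEC3G and APOBEC3H) were taken as the members, and 6 of them had a row among the 26702 genes tested. APOBEC3A had no row in any of the 6 comparison tables, so no level is given for it. Nutlin-3a raised APOBEC3C, APOBEC3D, APOBEC3F and APOBEC3H in control cells and lowered APOBEC3B. The level of APOBEC3D was low, and its rise did not pass a stricter threshold of 0.01 for the adjusted p. Depletion of ANKRA2 lowered APOBEC3F and APOBEC3H with or without Nutlin-3a, and APOBEC3B was the single member that was higher in cells depleted of RFXANK.

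The cells were U2OS, a human osteosarcoma line with functional p53. Each culture received siControl, siANKRA2 or siRFXANK, and then either the DMSO solvent or, for 24 h, Nutlin-3a at 10 µM, which frees p53 from its inhibitor MDM2. The 6 groups held 3 polyA RNA-seq libraries each, 18 in all, and every group came from this line. Nothing in the labels says that the 3 libraries of a group came from separate cultures, so the errors may be technical in part. The siRFXANK libraries were registered separately, with differently worded labels and no siControl libraries of their own, so an effect of siRFXANK and of that library set cannot be told apart in any comparison with siControl. The siRNA sequences were not used here, and each target was depleted under 1 siRNA label, so effects outside the target were not tested.

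APOBEC3 enzymes turn cytosine into uracil in single-stranded DNA. They restrict retroviruses and retrotransposons by mutating their reverse transcripts, and APOBEC3A and APOBEC3B are known as sources of clustered C-to-T and C-to-G mutations in tumours. p53 is known to act on the family in opposite directions: it activates several members, while APOBEC3B is repressed through p21 (the product of CDKN1A) and the DREAM complex, which binds E2F and CHR elements of cell cycle promoters. ANKRA2 and RFXANK are ankyrin repeat proteins. RFXANK is a subunit of the RFX complex that drives MHC class II genes.

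Each APOBEC3 protein has 1 or 2 zinc-binding deaminase domains, and the coding sequence of these domains shows how similar the genes are to one another. The motif was found once in APOBEC3A, APOBEC3C and APOBEC3H and in 2 copies in APOBEC3B, APOBEC3D, APOBEC3F and APOBEC3G, in the reading frame of the lowest-numbered coding transcript of each gene in GENCODE release 29 (build GRCh38). The stretches that bear on how reads can be assigned are given here, 5′ to 3′. Capitals mark the codons of the histidine and both cysteines that hold the zinc ion, of the catalytic glutamate and of the proline before the first cysteine.
APOBEC3A, the only copy, and APOBEC3B, copy 2: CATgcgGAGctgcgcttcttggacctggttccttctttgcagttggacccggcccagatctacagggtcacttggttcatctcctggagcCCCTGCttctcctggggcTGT
APOBEC3B, copy 1, and APOBEC3F, copy 1: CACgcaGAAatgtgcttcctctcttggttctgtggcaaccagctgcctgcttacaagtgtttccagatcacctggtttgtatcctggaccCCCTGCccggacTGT
APOBEC3D, copy 2, and APOBEC3F, copy 2: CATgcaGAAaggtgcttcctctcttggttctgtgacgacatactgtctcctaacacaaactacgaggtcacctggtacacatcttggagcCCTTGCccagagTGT
APOBEC3C, the only copy: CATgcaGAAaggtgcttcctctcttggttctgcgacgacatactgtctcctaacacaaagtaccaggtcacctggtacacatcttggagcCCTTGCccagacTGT
APOBEC3H, the only copy: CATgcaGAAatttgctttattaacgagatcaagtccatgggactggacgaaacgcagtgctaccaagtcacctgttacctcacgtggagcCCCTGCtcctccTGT

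The APOBEC3A stretch (chr22:38961420-38961530, exon 3) and copy 2 of APOBEC3B (chr22:38991365-38991475, exon 6) were identical in 111 of 111 bases. Copy 1 of APOBEC3B (chr22:38985833-38985937, exon 3) matched copy 1 of APOBEC3F (chr22:39044962-39045066, exon 3) in 105 of 105 bases, although these genes changed in opposite directions under Nutlin-3a. Copy 2 of APOBEC3D (chr22:39031715-39031819, exon 6) and copy 2 of APOBEC3F (chr22:39052095-39052199, exon 6) were likewise identical in 105 of 105 bases, and the APOBEC3C stretch (chr22:39017787-39017891, exon 3) differed from them at 4 positions. The APOBEC3H stretch (chr22:39101246-39101350, exon 3) shared fewer bases with the others of its length shown here, 57 of 105 with copy 2 of APOBEC3F and 59 with copy 1 of APOBEC3B. Copy 2 of APOBEC3G, not shown, shared 65 of 105 bases with it and 57 of 105 with copy 1 of APOBEC3B.

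The members also differed in how much sequence they share along the whole transcript. Of all 31-base words in the coding transcript examined, 92.1% in APOBEC3D also occurred in a transcript of another gene, against 52.3% in APOBEC3B, 37.2% in APOBEC3F, 25.7% in APOBEC3G, 9.47% in APOBEC3C and 2.46% in APOBEC3H. For APOBEC3A the share was 39.6%. The annotation also overlaps: 83.2% of the exon bases of APOBEC3D (chr22:39021113-39033276) lie in exons of AL022318.4 on the same strand, and 18.4% of those of APOBEC3B (chr22:38982347-38992804) lie in exons of APOBEC3A (chr22:38952741-38992778), with 12.9% opposite exons of APOBEC3B-AS1. Neither AL022318.4 nor APOBEC3B-AS1 had a row in the tables. How reads shared by genes or strands were counted is not given in the sources used here. The values of APOBEC3D and APOBEC3B may thus be affected, and to a lesser degree those of APOBEC3F and APOBEC3G. Those of APOBEC3C (chr22:39014083-39020352) and APOBEC3H (chr22:39097224-39104067) are the least exposed to it. APOBEC3F spans chr22:39040604-39053910 and APOBEC3G spans chr22:39077005-39087743.

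The depositors' tables hold fold changes and no values per library, so depth per library is unknown. The level of each gene in each group was therefore recovered from the fold changes and their standard errors, in counts normalized for library size. Such a group mean is an approximate value, and its 95% interval in brackets reflects the model of the error alone. The depleted genes were checked first. ANKRA2 was 97.1 normalized counts in siControl DMSO and 376 in siControl Nutlin-3a cells, and 27.7 and 63.0 after siANKRA2, with log2 fold changes over siControl of -1.81 in DMSO and -2.58 in Nutlin-3a. RFXANK was 824 and 950 in siControl cells and 106 in both siRFXANK groups, with log2 fold changes of -2.96 and -3.16. siANKRA2 also lowered RFXANK, by 0.37 and 0.44 on the log2 scale, and siRFXANK raised ANKRA2 by 0.73 and 0.46. The mean that the tables list for ANKRA2, 31568, is far above its highest recovered group mean of 516, and the libraries behind the listed means may thus include others than these 18. The recovered means are used as levels for the members, and the listed means only for the markers, the filters and a scaling check. Of the bone line markers, 5 of 6 had a row, with listed means of 64042 for COL1A1 and 29456 for SPARC. Among the leukocyte markers, CD3E, MS4A1 and LYZ had no row, and PTPRC, CD4 and CD14 had listed means of 3.81, 2.15 and 2.59.

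p53 activation was visible in all 3 backgrounds. All 6 p53 targets used as a check (CDKN1A, MDM2, BAX, TP53I3, FDXR and ZMAT3) rose under Nutlin-3a in siControl, siANKRA2 and siRFXANK cells, with median log2 fold changes of 2.55, 1.49 and 2.11. Of all genes, 21.9%, 15.5% and 22.8% were higher in these 3 responses. The 6 responses were smaller than in siControl cells for 6 of 6 genes after either knockdown. The response difference was lower for 12.5% of all genes after siANKRA2 and for 9.64% after siRFXANK. The levels under Nutlin-3a were not all lower. After siRFXANK, 4 genes were higher and 2 lower there than in siControl cells (19.8% and 19.6% of all genes). After siANKRA2, 2 were higher and 4 lower (24.6% and 25.5%). In DMSO, 4 were higher and none lower after siRFXANK (20.9% and 21.2%), and 3 higher and none lower after siANKRA2 (24.3% and 24.5%). The 3 included CDKN1A, which was 2.04 higher on the log2 scale. These shifts run beside the APOBEC3 results below, and their part in them was not tested.

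APOBEC3B is the nuclear member of the family. Its group mean was 1382 normalized counts (95% interval 1307 to 1460) in siControl DMSO and 737 (692 to 784) in siControl Nutlin-3a cells. It was 1064 (1004 to 1127) and 731 (687 to 778) in siANKRA2 cells, and 2580 (2451 to 2715) and 1718 (1629 to 1813) in siRFXANK cells. Both siRFXANK groups lay above every other group, and Nutlin-3a groups lay below their DMSO counterparts in all 3 backgrounds. Only siControl Nutlin-3a and siANKRA2 Nutlin-3a did not differ beyond their errors among neighbours in this order, with a log2 difference of 0.011 (95% interval -0.12 to 0.14). Scaled to the mean listed for APOBEC3B, its siControl levels were 919 in DMSO and 490 in Nutlin-3a. Both lie outside the intervals given for these groups, so its absolute level is less certain than they show.

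APOBEC3C is a member with 1 deaminase domain that is found in nucleus and cytoplasm. Its group mean was 2092 normalized counts (95% interval 2002 to 2185) in siControl, 2208 (2114 to 2305) in siANKRA2 and 1975 (1890 to 2064) in siRFXANK cells under DMSO. Under Nutlin-3a it was 7038 (6773 to 7314), 4788 (4602 to 4981) and 5996 (5767 to 6233). In DMSO neither knockdown differed from siControl beyond its errors, but siRFXANK lay below siANKRA2 (log2 difference -0.16, 95% interval -0.25 to -0.071). The 3 Nutlin-3a groups were all apart.

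APOBEC3F has 2 deaminase domains and restricts Vif-deficient HIV-1 together with APOBEC3G. Its group mean rose from 241 normalized counts (95% interval 219 to 265) to 408 (375 to 443) in siControl cells, from 123 (110 to 139) to 203 (184 to 225) in siANKRA2 cells and from 213 (193 to 234) to 286 (262 to 313) in siRFXANK cells. The siANKRA2 level under Nutlin-3a was thus no higher than the siControl level without it. In the order of levels, siControl DMSO and siRFXANK DMSO were not apart, nor were siRFXANK DMSO and siANKRA2 Nutlin-3a.

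APOBEC3H, the most divergent member, which is known for its RNA-bound form and for haplotypes of differing stability, was low. Its group mean was 13.1 normalized counts (95% interval 9.12 to 18.9) and 71.8 (56.9 to 90.5) in siControl cells without and with Nutlin-3a. It was 4.06 (2.25 to 7.35) and 21.9 (16.1 to 29.8) in siANKRA2 cells, and 13.5 (9.38 to 19.4) and 49.7 (38.7 to 63.7) in siRFXANK cells. Neighbouring levels were compared by unadjusted intervals, in which siRFXANK DMSO and siControl DMSO were not apart, with a log2 difference of 0.035 (95% interval -0.71 to 0.78). siControl Nutlin-3a and siRFXANK Nutlin-3a were apart there (0.53, 0.041 to 1.02) but not in the test adjusted over all genes (adjusted p = 0.0801).

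APOBEC3G and APOBEC3D were close to the limit of the data. APOBEC3G, the restriction factor that HIV-1 Vif was first found to counteract, ranged from 5.63 normalized counts (95% interval 3.30 to 9.63) in siANKRA2 DMSO to 17.1 (11.8 to 24.7) in siControl Nutlin-3a cells, and no neighbouring levels were apart. APOBEC3D, another restriction factor with 2 domains, was 5.73 and 15.7 in siControl, 2.02 and 3.74 in siANKRA2 and 2.86 and 13.8 in siRFXANK cells, in DMSO and Nutlin-3a. The siANKRA2 DMSO and siRFXANK DMSO means of APOBEC3D lay under 3 normalized counts, the floor used here for a detectable level, so its fold changes against these groups carry wide errors.

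**Figure D1:**
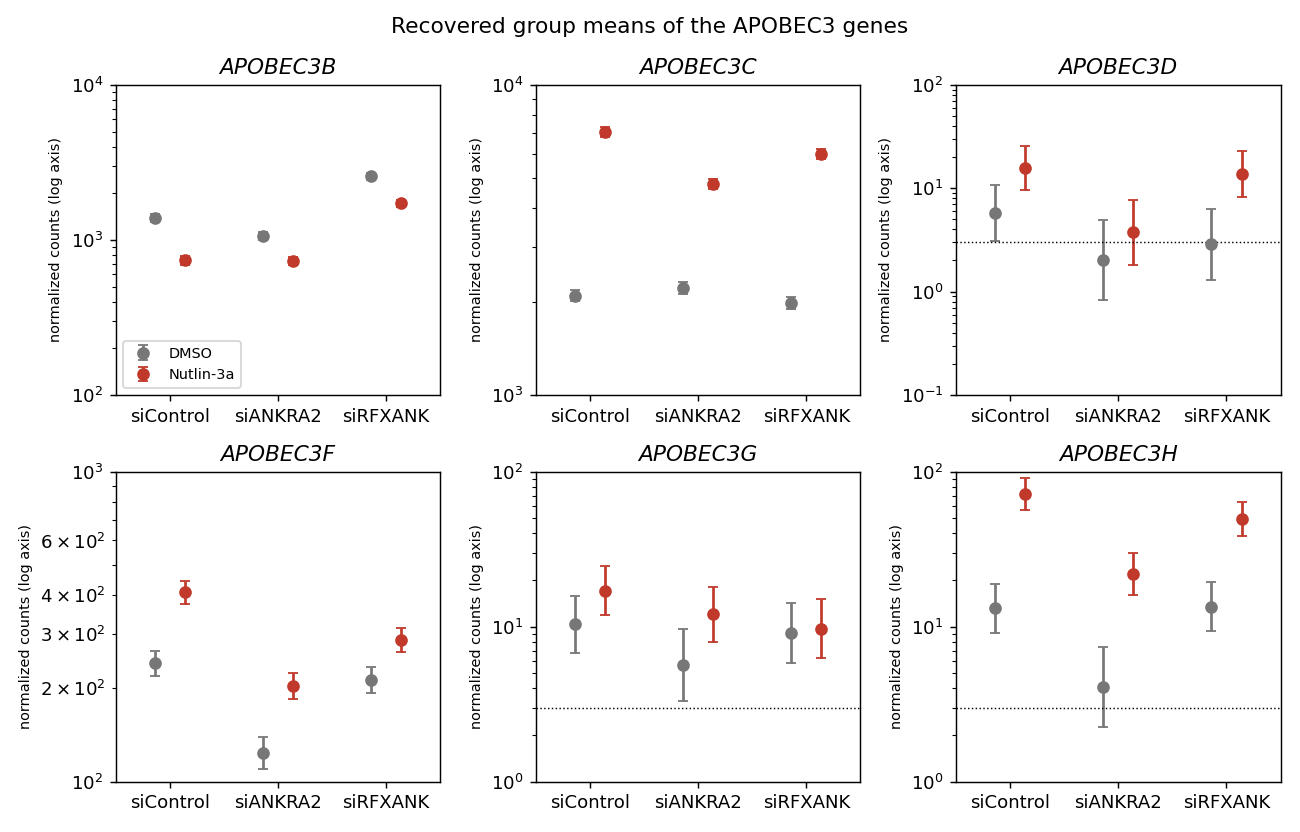
Recovered group means of the 6 APOBEC3 genes in normalized counts (log axis) by siRNA, in DMSO (grey) and Nutlin-3a (red), with bars for the 95% interval and a dotted line at the floor of 3. APOBEC3B falls from 1382 to 737 in siControl cells where APOBEC3C rises from 2092 to 7038, and APOBEC3H and APOBEC3F are lowest in siANKRA2 DMSO cells, at 4.06 and 123. The bars reflect the model of the error alone.

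The first comparison asked how p53 activation changed the family in control cells. In bulk RNA, fewer cells that express a gene and less RNA per cell cannot be told apart. Of 6 members, 4 rose and 1 fell, against 21.9% of all genes higher and 21.2% lower at an adjusted p under 0.05. APOBEC3H rose most, 5.46-fold (log2 fold change 2.45, SE 0.32, adjusted p = 7.03e-14), and only 2.995% of all genes had a larger log2 fold change. APOBEC3C rose 3.37-fold (1.75, SE 0.043), with an adjusted p listed as 0. APOBEC3D rose 2.74-fold (1.46, SE 0.59, adjusted p = 0.0325) and APOBEC3F 1.69-fold (0.76, SE 0.092, adjusted p = 1.38e-15). APOBEC3B fell 1.88-fold (log2 fold change -0.91, SE 0.061, adjusted p = 9.24e-49), and 10.6% of all genes had a lower value. APOBEC3G had a log2 fold change of 0.72 (SE 0.41) that did not pass the threshold (adjusted p = 0.156). The median over the 6 members was 1.11, against 0.015 over all genes.

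In siANKRA2 cells the same treatment raised APOBEC3C, APOBEC3F and APOBEC3H and lowered APOBEC3B, so 3 members rose and 1 fell, where 15.5% of all genes were higher and 17.0% lower. APOBEC3H rose 5.39-fold (log2 fold change 2.43, SE 0.50, adjusted p = 7.07e-06), APOBEC3C 2.17-fold (1.12, SE 0.043, adjusted p = 7.46e-144) and APOBEC3F 1.65-fold (0.72, SE 0.11, adjusted p = 3.56e-09). APOBEC3B fell 1.45-fold (-0.54, SE 0.063, adjusted p = 1.58e-16). APOBEC3G, at 1.096 (SE 0.50, adjusted p = 0.0797), and APOBEC3D, at 0.89 (95% interval -0.78 to 2.56, adjusted p = 0.485), did not pass.

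The response of siRFXANK cells had no table of its own and was computed from the siRFXANK and siControl comparisons. The siControl groups cancel in it, so it compares siRFXANK libraries with each other. Again 4 members rose and 1 fell (background 22.8% higher and 22.5% lower). APOBEC3H rose 3.69-fold (log2 fold change 1.88, SE 0.32, adjusted p = 2.35e-08), APOBEC3C 3.04-fold (1.602, SE 0.043, adjusted p = 1.69e-298) and APOBEC3F 1.35-fold (0.43, SE 0.098, adjusted p = 3.96e-05), while APOBEC3B fell 1.501-fold (-0.59, SE 0.055, adjusted p = 1.24e-25). APOBEC3D rose by 2.27 on the log2 scale (95% interval 0.92 to 3.61, adjusted p = 0.00269) from a level under the floor. APOBEC3G was at 0.091 (SE 0.46, adjusted p = 0.901).

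**Figure D2:**
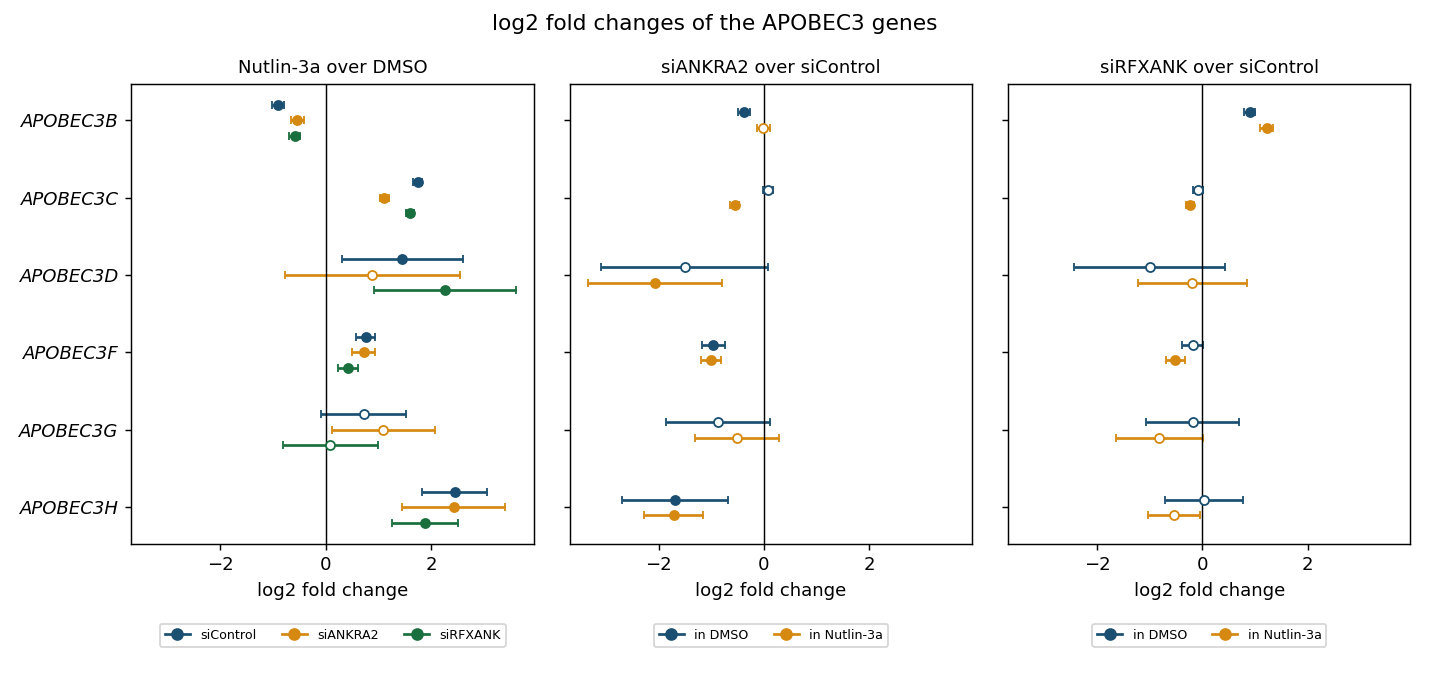
log2 fold changes of the 6 APOBEC3 genes with 95% intervals for Nutlin-3a over DMSO by siRNA (left), siANKRA2 over siControl (centre) and siRFXANK over siControl (right). Filled points passed an adjusted p under 0.05 and open points did not. APOBEC3B lies left of 0 in all 3 Nutlin-3a responses and right of 0 after siRFXANK, at 0.90 and 1.22, and APOBEC3F and APOBEC3H lie left of 0 after siANKRA2.

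siANKRA2 was then compared with siControl at each treatment. In DMSO, 3 of 6 members fell and none rose (background 24.5% lower and 24.3% higher). APOBEC3H fell 3.24-fold (log2 fold change -1.69, SE 0.51, adjusted p = 0.00254), APOBEC3F 1.95-fold (-0.96, SE 0.11, adjusted p = 3.37e-17) and APOBEC3B 1.30-fold (-0.38, SE 0.059, adjusted p = 6.87e-10). APOBEC3C was at 0.078 (SE 0.045, adjusted p = 0.153), and APOBEC3D and APOBEC3G were at -1.51 (95% interval -3.09 to 0.075) and -0.88 (-1.87 to 0.11), not past the threshold.

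In Nutlin-3a, 4 members fell and none rose (background 25.5% lower and 24.6% higher). APOBEC3D fell 4.20-fold (log2 fold change -2.07, SE 0.65, adjusted p = 0.00342), with 3.43% of all genes lower. Its siANKRA2 level there, 3.74 normalized counts (95% interval 1.83 to 7.65), was close to the floor of 3, so the size of this fall is uncertain. APOBEC3H fell 3.28-fold (-1.71, SE 0.29, adjusted p = 8.16e-09), APOBEC3F 2.004-fold (-1.003, SE 0.096, adjusted p = 1.11e-24) and APOBEC3C 1.47-fold (-0.56, SE 0.041, adjusted p = 1.86e-41). APOBEC3B was at -0.011 (95% interval -0.14 to 0.12, adjusted p = 0.919), so a difference beyond these bounds was not seen, and APOBEC3G was at -0.50 (SE 0.41). APOBEC3F and APOBEC3H thus fell by nearly equal amounts in both treatments. Both comparisons share no group, but the Nutlin-3a responses above use the same 4 groups.

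siRFXANK over siControl gave another order. In DMSO only APOBEC3B passed the threshold: 1 of 6 members was higher and none lower (background 20.9% higher and 21.2% lower). APOBEC3B was 1.87-fold higher (log2 fold change 0.90, SE 0.055, adjusted p = 1.83e-57), and 10.3% of all genes had a larger value. The other members lay between -0.9998 for APOBEC3D (95% interval -2.43 to 0.43) and 0.035 for APOBEC3H (SE 0.37), with APOBEC3C at -0.083 (SE 0.046) and APOBEC3F at -0.18 (SE 0.10).

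In Nutlin-3a, APOBEC3B was 2.33-fold higher (log2 fold change 1.22, SE 0.060, adjusted p = 3.75e-89), with 5.49% of all genes above it. APOBEC3F was 1.42-fold lower (-0.51, SE 0.090, adjusted p = 1.03e-07) and APOBEC3C 1.17-fold lower (-0.23, SE 0.040, adjusted p = 5.66e-08), so 1 member was higher and 2 lower (background 19.8% higher and 19.6% lower). APOBEC3G, at -0.82 (SE 0.42), APOBEC3H, at -0.53 (SE 0.25, adjusted p = 0.0801), and APOBEC3D, at -0.19 (SE 0.53), did not pass.

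Whether the knockdowns changed the response itself was tested as the difference between responses. For siANKRA2 minus siControl, APOBEC3B was higher and APOBEC3C lower among 6 members (background 11.4% higher and 12.5% lower). The rise of APOBEC3C was smaller by 0.63 on the log2 scale (difference -0.63, SE 0.061, adjusted p = 1.75e-23), leaving 0.638 of its log2 response in siControl cells. After siANKRA2, APOBEC3B was 0.38 lower than in siControl cells in DMSO and not called in Nutlin-3a (log2 fold change -0.011). Its fall was thus smaller by 0.37 (SE 0.088, adjusted p = 0.000258), leaving 0.596 of its log2 response in siControl cells. Over all genes tested, the median absolute log2 fold change under Nutlin-3a was 0.41 in siControl cells (25909 genes). It was 0.24 in siANKRA2 cells (22738 genes). Smaller responses after siANKRA2 were thus not particular to APOBEC3B and APOBEC3C. In contrast, the responses of APOBEC3H and APOBEC3F differed by -0.019 (95% interval -1.17 to 1.13) and -0.039 (-0.33 to 0.25), intervals that for APOBEC3H still allow a change of the size seen in APOBEC3C. APOBEC3D and APOBEC3G had intervals of -2.59 to 1.46 and -0.90 to 1.64.

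For siRFXANK minus siControl, only APOBEC3B passed, with a fall smaller by 0.32 (SE 0.082, adjusted p = 0.000953), so 1 member was higher and none lower (background 11.6% higher and 9.64% lower). APOBEC3C, at -0.15 (SE 0.061), and APOBEC3F, at -0.33 (SE 0.13), each had an adjusted p of 0.0637. Both passed when genes with a listed mean under 10 were left out and p-values were adjusted again (adjusted p = 0.0475), so their call turned on that filter. APOBEC3H was at -0.57 (95% interval -1.45 to 0.32), APOBEC3G at -0.63 (-1.84 to 0.58) and APOBEC3D at 0.81 (-0.96 to 2.58), none of them past the threshold.

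**Figure D3:**
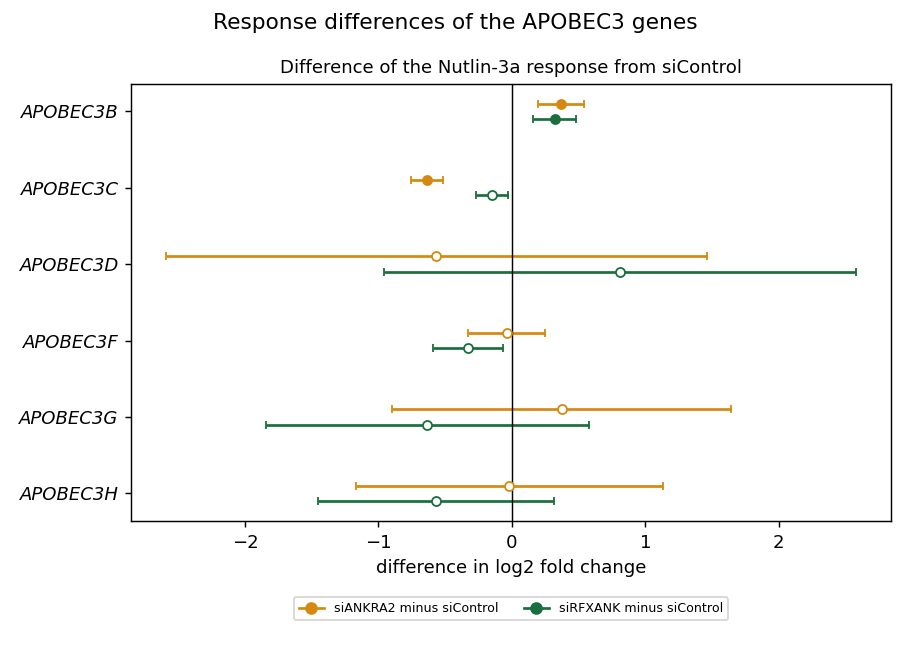
Difference in log2 fold change between the Nutlin-3a response of siANKRA2 (orange) or siRFXANK cells (green) and that of siControl cells, with 95% intervals. Filled points passed an adjusted p under 0.05: APOBEC3B at 0.37 and 0.32 after siANKRA2 and siRFXANK, and APOBEC3C at -0.63 after siANKRA2.

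The knockdowns were also set against each other, a comparison chosen after the values of both had been seen. Averaged over both treatments, 5 of 6 members were higher in siRFXANK than in siANKRA2 cells (background 35.0% higher and 34.4% lower), but for APOBEC3C the average joined opposite signs. The log2 differences were 1.26 for APOBEC3B (SE 0.042, adjusted p = 7.21e-198), 1.46 for APOBEC3H (SE 0.30, adjusted p = 1.81e-06), 1.19 for APOBEC3D (95% interval 0.12 to 2.26, adjusted p = 0.0421), 0.64 for APOBEC3F (SE 0.075, adjusted p = 7.45e-17) and 0.082 for APOBEC3C (SE 0.031, adjusted p = 0.0117). APOBEC3G was at 0.19 (SE 0.34, adjusted p = 0.631). Taken by treatment, APOBEC3C was lower in siRFXANK than in siANKRA2 cells in DMSO (log2 difference -0.16, 95% interval -0.25 to -0.071, adjusted p = 0.000896) and higher in Nutlin-3a (0.32, 0.24 to 0.40, adjusted p = 7.95e-15). APOBEC3B was higher by 1.28 and 1.23, APOBEC3F by 0.78 and 0.49 and APOBEC3H by 1.73 and 1.18, in DMSO and Nutlin-3a. APOBEC3D was at 0.51 (-1.21 to 2.23) in DMSO and 1.88 (0.61 to 3.15) in Nutlin-3a. This difference, too, cannot be told apart from that between the library sets.

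To compare levels between members, the recovered means were divided by the length of each gene's exons, which ranged from 1251 bases in APOBEC3H to 5437 in APOBEC3G. On this scale, in normalized counts per kb, the 6 members summed to 1560 in siControl DMSO and 3079 in siControl Nutlin-3a cells. The sums were 1388 and 2169 in siANKRA2 cells and 2141 and 3169 in siRFXANK cells. APOBEC3B and APOBEC3C made up most of each sum, and APOBEC3F between 2.74% and 4.76%.

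The balance between the main pair changed with every condition. APOBEC3C stood at 1.02 times APOBEC3B per kb in siControl DMSO and at 6.43 times in siControl Nutlin-3a cells. The ratio went from 1.40 to 4.40 in siANKRA2 cells and from 0.515 to 2.35 in siRFXANK cells. APOBEC3B accordingly made up 46.7% of the summed level in siControl DMSO, 12.6% in siControl Nutlin-3a, 63.6% in siRFXANK DMSO and 28.6% in siRFXANK Nutlin-3a cells. The absolute ratios rest on the recovered means. The mean listed for APOBEC3B was 0.665 times the mean of its recovered levels and that for APOBEC3C 1.12 times, and after scaling to the listed means the ratios were 1.72 and 10.9 in siControl, 2.36 and 7.44 in siANKRA2 and 0.870 and 3.96 in siRFXANK cells. The shares of APOBEC3B were then 34.0% and 7.83% in siControl and 50.6% and 19.1% in siRFXANK cells, in DMSO and Nutlin-3a.

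**Figure D4:**
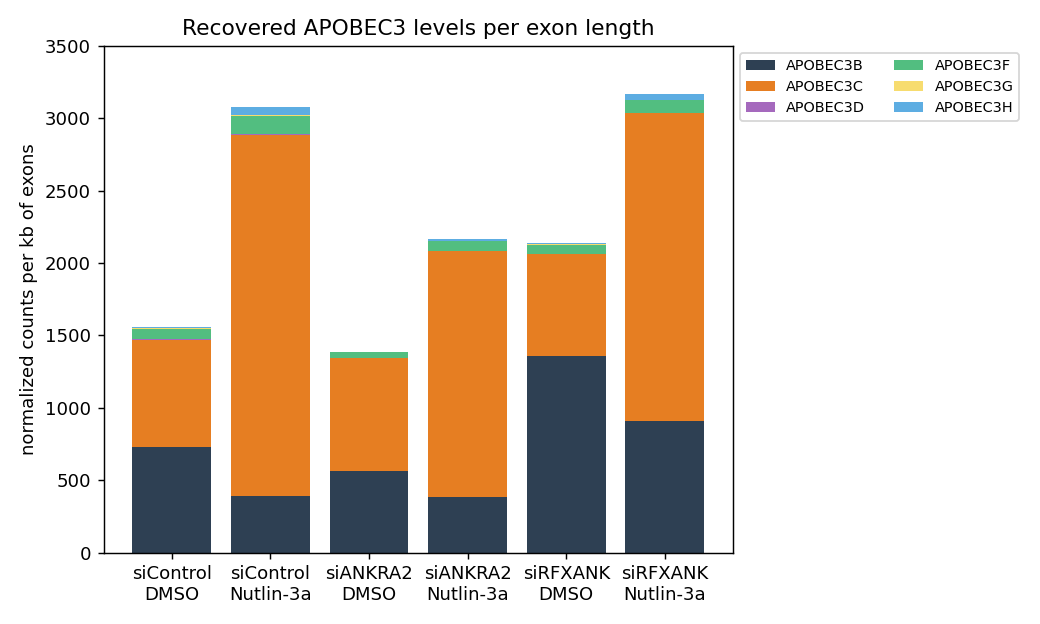
Recovered APOBEC3 levels per kb of exons in normalized counts, stacked by gene for each of the 6 groups. APOBEC3C makes up 47.6% of the bar in siControl DMSO and 81.1% in siControl Nutlin-3a cells, and the APOBEC3B part is largest in siRFXANK DMSO cells, at 63.6%. Scaled to the listed means, these shares are 58.4%, 85.0% and 50.6%.

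Genes that handle the uracil left by these enzymes were measured beside them. Uracil in DNA is removed by UNG and kept low by the dUTPase DUT, and MSH6 takes part in mismatch recognition. Of 18 genes of uracil and abasic site repair, 3 rose and 13 fell under Nutlin-3a in siControl cells (21.9% and 21.2% of all genes), with a median log2 fold change of -0.26, against 0.015 over all genes. UNG fell by 1.70 (SE 0.050, adjusted p = 2.01e-253), DUT by 1.37 (SE 0.052, adjusted p = 2.13e-150) and MSH6 by 1.30 (SE 0.038, adjusted p = 2.06e-261) on the log2 scale. In siANKRA2 cells 3 rose and 10 fell (15.5% and 17.0% of all genes), and in siRFXANK cells 3 rose and 12 fell (22.8% and 22.5%). The response of UNG was 0.74 less negative in siANKRA2 than in siControl cells and differed from it by -0.0098 in siRFXANK cells (adjusted p = 4.71e-24 and 0.954).

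Subunits of the repressors known to act at APOBEC3B were measured as well. The list held 16 genes, those of DREAM and of E2F6-containing complexes and, besides, MYBL2. Of the 16, 2 rose and 11 fell under Nutlin-3a in siControl cells (21.9% and 21.2% of all genes), with a median of -0.57. The largest falls were in MYBL2 (log2 fold change -1.96), LIN9 (-1.81), a core subunit, and RBL1 (-1.69), the p107 pocket protein. MYBL2 joins the core when the cell cycle proceeds and is not a subunit of the repressor. After siRFXANK, 6 of these 16 genes were higher and 6 lower in DMSO (20.9% and 21.2% of all genes), and 8 higher and 4 lower in Nutlin-3a (19.8% and 19.6%), beside the higher APOBEC3B. After siANKRA2, 2 were higher and 11 lower in DMSO (24.3% and 24.5%), beside the lower APOBEC3B, and 6 were higher and 5 lower in Nutlin-3a (24.6% and 25.5%), where APOBEC3B was not called. Their part in the APOBEC3B values was not tested.

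Other deaminases were counted in the same way. APOBEC1, APOBEC2 and APOBEC4 had no row in the tables. Of the 9 that were tested, 1 rose and 1 fell under Nutlin-3a in siControl cells (21.9% and 21.2% of all genes), 1 rose and none fell in siANKRA2 cells (15.5% and 17.0%), and 4 rose and none fell in siRFXANK cells (22.8% and 22.5%). CDA, the cytidine deaminase of nucleotide salvage, rose by 1.14 (SE 0.10, adjusted p = 8.31e-29), and CDADC1 fell by 0.37 (SE 0.13, adjusted p = 0.0104). The response of CDA was smaller by 1.08 in siANKRA2 and by 0.91 in siRFXANK cells.

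Other restriction factors and the host proteins that Vif uses against APOBEC3 were counted too. Of 13 retroviral restriction factors, 7 rose and 1 fell under Nutlin-3a in siControl cells (21.9% and 21.2% of all genes), led by TRIM22 (log2 fold change 1.88), SERINC5 (1.09) and TRIM5 (0.93). HIV-1 Vif recruits CBFB and a CUL5 ubiquitin ligase with ELOB and ELOC to degrade APOBEC3 proteins. Of 6 genes of this ligase, 2 rose and 2 fell under Nutlin-3a in siControl cells (21.9% and 21.2% of all genes), none by more than 0.26. After siANKRA2, 4 were higher and 1 lower in each treatment (24.3% and 24.5% of all genes in DMSO, 24.6% and 25.5% in Nutlin-3a). CBFB was 0.50 and 0.51 higher there, in DMSO and Nutlin-3a, and 0.57 and 0.63 higher after siRFXANK.

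More genes flanking the cluster on chromosome 22 were lower than higher under Nutlin-3a in siControl cells and after siANKRA2. Of 12 neighbours, 3 rose and 8 fell under Nutlin-3a in siControl cells (21.9% and 21.2% of all genes). After siANKRA2, 2 were higher and 9 lower in DMSO (24.3% and 24.5%), and 4 higher and 6 lower in Nutlin-3a (24.6% and 25.5%). The largest responses were those of SUN2 (log2 fold change -1.08), a nuclear envelope protein, PDGFB (-0.89), a growth factor, and NPTXR (0.84), a pentraxin receptor. After siRFXANK in DMSO, where APOBEC3B was 0.90 higher, 5 of the 12 were higher and 5 lower (20.9% and 21.2%). Within siANKRA2 cells, 3 of the 12 rose and 2 fell under Nutlin-3a (15.5% and 17.0%).

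The genes whose levels over the 6 groups were most like those of a member were found by the distance over the 5 log2 levels relative to siControl DMSO, among 13103 genes with a listed mean of at least 100. ACBD4, GSAP and DHRS1 were nearest to APOBEC3F, at distances of 0.11, 0.16 and 0.18. SLC25A45 (0.22), ZNF561-AS1 (0.27) and FAM83H (0.38) were nearest to APOBEC3C. APOBEC3B had no neighbour closer than PRKACB (0.30), followed by RPL39L and PNN (both 0.43). These distances describe 6 group levels from 18 libraries and carry no test.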

How the data were processed

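PolyA RNA-seq of U2OS cells gave 18 libraries in 6 groups of 3, grouped by the labels. Per the labels, the authors' processing notes name Trimmomatic 0.39, featureCounts 1.6.5, DESeq2 1.20.0 and build hg38; the aligner, annotation and use of strand are not given in the sources used here. The authors deposited 6 DESeq2 comparison tables, whose columns hold a mean of size-factor normalized counts (a signal), a log2 fold change with its standard error, the Wald score and its p-value and adjusted p-value. These comparison columns are the only values in the files, and the members are described from them. Depth per library is unknown.

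The siANKRA2 tables close exactly with the Nutlin-3a tables (largest error 1.38e-14). The direction of the siRFXANK tables was checked by refitting squared standard errors: the median largest miss was 1.08% as read and 19.9% when reversed, and 268 of 268 genes were better as read. The siRFXANK response, the response differences and siRFXANK over siANKRA2 were combined from deposited log2 fold changes and tested two-sided on the normal distribution, with Benjamini-Hochberg adjustment over all genes and a threshold of 0.05. Group means came from a least squares fit of the standard errors with variance (1/mean + dispersion)/(n ln2²), n = 3. Over 13095 genes the listed mean was 0.988 times the mean of the recovered means (median, 0.616 and 1.49 at the 1st and 99th percentiles). On simulated data 136 of 200 genes with a 2-fold changed siANKRA2 response were recovered with 6 false calls, and 152 with 5 false calls for siRFXANK, among 19342 genes. The simulated counts were drawn with the fitted dispersions, which also gave their standard errors, and without a difference between library sets. Their false calls thus check the arithmetic and do not measure false calls in these data.

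Coordinates and sequences are from GENCODE release 29, which held 26659 of the 26702 gene IDs. Scripts used Python 3.11.15, numpy 2.4.6, pandas 2.3.3, scipy 1.17.1 and matplotlib 3.10.9. All members are named; of the other lists, at most 3 genes past the threshold with the largest response in siControl cells, the p53 targets and the depleted genes. COL1A1, SPARC, PTPRC, CD4 and CD14 are named as markers. CBFB after both knockdowns is given as a gene so named. Members, lists and rules were chosen with earlier results of these data known. The alternatives tried were a stricter threshold (0.01), calls limited to log2 fold changes of 1 or more in size, listed means of at least 10 or 100, genes in all 6 tables, the other pair of siANKRA2 tables, siRFXANK over siANKRA2 in each treatment (errors from the recovered groups, chosen after seeing the data) and means scaled to the listed mean.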

Additional observations from a re-analysis of the deposited data

Results flagged for a closer look

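Differences between knockdown and control in the response to Nutlin-3a drew attention to 2 members. The fall of APOBEC3B was smaller than in siControl cells by 0.37 (log2, SE 0.088, adjusted p = 0.000258) after siANKRA2 and by 0.32 (SE 0.082, adjusted p = 0.000953) after siRFXANK. The response of APOBEC3C differed by -0.63 (SE 0.061, adjusted p = 1.75e-23) after siANKRA2. Responses over all genes tested were also smaller in siANKRA2 cells. Their median absolute log2 fold change was 0.24 there, 0.41 in siControl and 0.40 in siRFXANK cells. Each is a test of the difference itself over the 4 groups involved, adjusted over all genes, and the siANKRA2 and siRFXANK differences share the siControl groups. After siANKRA2, APOBEC3B differed from siControl in DMSO (log2 fold change -0.38) and was not called in Nutlin-3a (-0.011).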

How the results depend on the processing

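No paired analysis was possible because the tables hold no values per library, and for the same reason no library could be left out. Thresholds, filters and renewed adjustment leave a log2 fold change as it is, so they bear on calls alone, and the other pair of siANKRA2 tables gives the same difference by construction. Of 278 repeated calls on single members, 251 kept their direction and side of the threshold, 21 lost the call, 4 gained it and 2 turned sign. The last were both in siRFXANK over siANKRA2 taken by treatment, an alternative chosen after seeing the data: APOBEC3C at -0.16 in DMSO alone and APOBEC3G, not called, at -0.31 in Nutlin-3a alone. When calls also needed a log2 fold change of 1 or more in size, the number of members called went down to 3 for Nutlin-3a in siControl, 2 in siANKRA2 and 3 in siRFXANK cells, to 1 after siANKRA2 without Nutlin-3a, to 0 and 1 after siRFXANK without and with it, to 0 for each response difference and 3 for siRFXANK over siANKRA2. With listed means of at least 100, only 3 members were tested, and 3 were called for Nutlin-3a in siControl and in siRFXANK cells, 2 for siANKRA2 in Nutlin-3a, 3 for the response difference of siRFXANK (3 also at a mean of at least 10, against 1) and 3 for siRFXANK over siANKRA2, which also had 3 at a threshold of 0.01. At that threshold APOBEC3D lost its call in siControl cells. Adjusting over the genes in all 6 tables changed no call. Scaling to the listed means moved 19 of 36 group levels by more than their spread, and their sum from 5677 to 5783. The lowest levels, of APOBEC3D and APOBEC3G, limit what their comparisons can show.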
